A study of Mus musculus with 16 samples.

Results

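The mitochondrial ribosomal protein genes of the mouse, the nuclear genes for the protein subunits of the ribosome inside mitochondria, were followed through sleep disruption (SD) in the somatosensory cortex. They were taken from the expression tables by symbol, as every gene named Mrpl or Mrps followed by a digit, without pseudogenes, that had a read in any of the 12 libraries. This gave 77 genes, 48 named Mrpl and 29 named Mrps, out of 20978 genes with a read. Each of the 77 had reads in every library, between 183 and 3260, so no filter on low values removed any of them.

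The mitochondrial ribosome translates the mRNAs of the mitochondrial genome, which code for core subunits of the respiratory chain and of the ATP synthase. Its rRNAs are made inside the organelle, whereas all of its proteins are coded in the nucleus, made in the cytosol and imported. Part of the proteins are classed here as bacterial-type, with a bacterial counterpart, and the rest are called mitochondria-specific. Of the paralogs Mrps18a, Mrps18b and Mrps18c, only Mrps18c was classed as bacterial-type, so the classes do not separate all genes by descent. Of the 77 genes, 30 code for bacterial-type and 20 for mitochondria-specific proteins of the large subunit, and 16 and 10 for those of the small subunit. The remaining gene, Mrps36, carries a ribosomal name, but its product is known as a component of the 2-oxoglutarate dehydrogenase complex. Mrps30 and Mrps18a are named after the small subunit and were counted with the large subunit, where their products sit.

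RNA-seq was done on bulk cortex of C57BL/6 wild-type (WT) mice and of AcPb-/- mice, which lack the neuronal isoform of the interleukin-1 receptor accessory protein. The mice were homozygous offspring of bred lines, aged 2 to 3 months, and all were euthanized at zeitgeber time (ZT) 4, counted in hours from light onset. Undisturbed controls (CTL-WT and CTL-AcPbKO) were compared with mice kept awake by gentle handling for 8 h from ZT20 (SD-WT and SD-AcPbKO), with 3 libraries in each of the 4 groups. Each library is called by the number in its label. The protocol counts mice in each group, but the labels of single samples name no mouse, so p-values measure the spread between these libraries.

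Some properties of the libraries bear on every result. The SD libraries held 58770286 to 71857505 reads on genes, against 26504840 to 41615582 in the controls. Xist, the RNA of the inactive X chromosome, was at 42880 to 46055 normalized counts in 4 control libraries (CTL-WT 02 and 03, CTL-AcPbKO 04 and 05) and at 3.55 to 16.5 in the other 8, which included all 6 SD libraries. Summed Y-linked genes were at 0 to 3.53 normalized counts in the same 4 libraries and at 6452 to 7845 in the other 8. By these values the 4 control libraries read as female and all 6 SD libraries as male. Sex was thus not balanced between SD and control libraries in either genotype. The labels state that male founders were bought and give no sex for single samples, and the paper describes its wild-type RNA-seq mice as male. All 77 genes are autosomal, and results are given below with and without these 4 libraries. In bulk tissue, fewer cells of a type and less RNA per cell cannot be told apart. Summed excitatory neuron markers were at 417219 to 442286 normalized counts in CTL-WT and 427021 to 516455 in SD-WT. In AcPb-/- mice they were at 408960 to 487679 without and 451707 to 514336 after SD, overlapping in both genotypes. In each genotype 1 of 5 was higher after SD. Of 5 endothelial markers, 2 were higher and 1 lower in each genotype, and of 5 inhibitory neuron markers 1 and 1. Of 6 astrocyte markers, 2 were lower in WT and 1 in AcPb-/- mice, and of 8 striatal markers 2 and 0. Of 5 red blood cell markers, 4 globin genes are listed at 0 in all libraries, and Alas2 was at 143 to 427. Of 6 oligodendrocyte markers, 4 were lower after SD in WT mice and 1 in AcPb-/- mice, with summed levels of 106978 to 136457 in CTL-WT, 86352 to 119034 in SD-WT, 53954 to 124101 in CTL-AcPbKO and 69595 to 104115 in SD-AcPbKO, overlapping in both genotypes. Microglia markers summed to 10132 to 11632 in CTL-WT, 9634 to 10478 in SD-WT, 10063 to 11227 in CTL-AcPbKO and 7383 to 9185 in SD-AcPbKO, with no overlap in AcPb-/- mice, where 2 of 5 were lower (1 of 5 in WT). Meningeal fibroblast markers summed to 6186 to 6276 in CTL-WT, 5120 to 5901 in SD-WT, 6524 to 8265 in CTL-AcPbKO and 6348 to 7079 in SD-AcPbKO, with no overlap in WT mice, where 2 of 5 were lower (1 of 5 in AcPb-/-). The part of these cell types in the results was not tested. Summed choroid plexus markers stood at 17959 normalized counts in SD-AcPbKO 04 and at 304 to 587 in the other libraries. The count of Il1rap reads cannot check the AcPb deletion, because the deleted isoform shares this gene with the isoform that the mice keep.

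SD moved the mitochondrial ribosomal protein genes in both directions. In WT mice, 21 were upregulated and 10 downregulated (limma, Benjamini-Hochberg adjusted p under 0.05 over 20417 genes), which is 40.3% of the 77, while 25.4% of all genes tested passed (13.2% up and 12.2% down). In AcPb-/- mice, 23 were upregulated and 14 downregulated, 48.1% of the 77, and 27.4% of all genes tested passed (14.1% up and 13.3% down). With the test restricted to genes with a mean of at least 10 normalized counts, as all 77 had, the background rose to 33.9% and 37.3%, and 33 and 38 of the 77 passed. Upregulated members had a median fold of 1.29 in WT and 1.31 in AcPb-/- mice and downregulated members one of 0.721 and 0.741, and the largest change was that of Mrps24 in AcPb-/- mice (-0.84 on the log2 scale). With all libraries thinned to the same depth, 31 members passed in each genotype, beside 23.1% (WT) and 25.4% (AcPb-/-) of all genes tested. The WT count was 16 without CTL-WT 02, where 13.3% of all genes tested passed. It was 18 without SD-WT 01 or without SD-WT 02, where 14.5% and 14.0% of all genes tested passed. The AcPb-/- count was 24 without CTL-AcPbKO 04, where 16.7% of all genes tested passed. Without SD-WT 04 the WT count was 38, with 21 up and 17 down, beside 30.7% of all genes tested. In each of these fits every member past the threshold over all libraries kept its sign. With both directions present, the median log2 fold change over the 77 was 0.02 in WT and 0.05 in AcPb-/- mice, beside 0.00 and 0.01 over all genes tested. The WT median turned to -0.0016 without CTL-WT 01 and to -0.03 without SD-WT 04 and reached 0.06 without SD-WT 01, the AcPb-/- median ranged from 0.01 (without SD-AcPbKO 03) to 0.09 (without CTL-AcPbKO 05), and with a term for the libraries with Xist the medians were 0.09 and 0.10, so no direction of the family as a whole is read from them. The family took 0.163% to 0.188% of the reads in any library, and the summed normalized counts of SD-WT (82244 to 89081) overlapped those of CTL-WT (79039 to 84697). In the AcPb-/- mice the sums also overlapped, at 79840 to 84207 after SD and 77421 to 80296 without it.

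**Figure D1:**
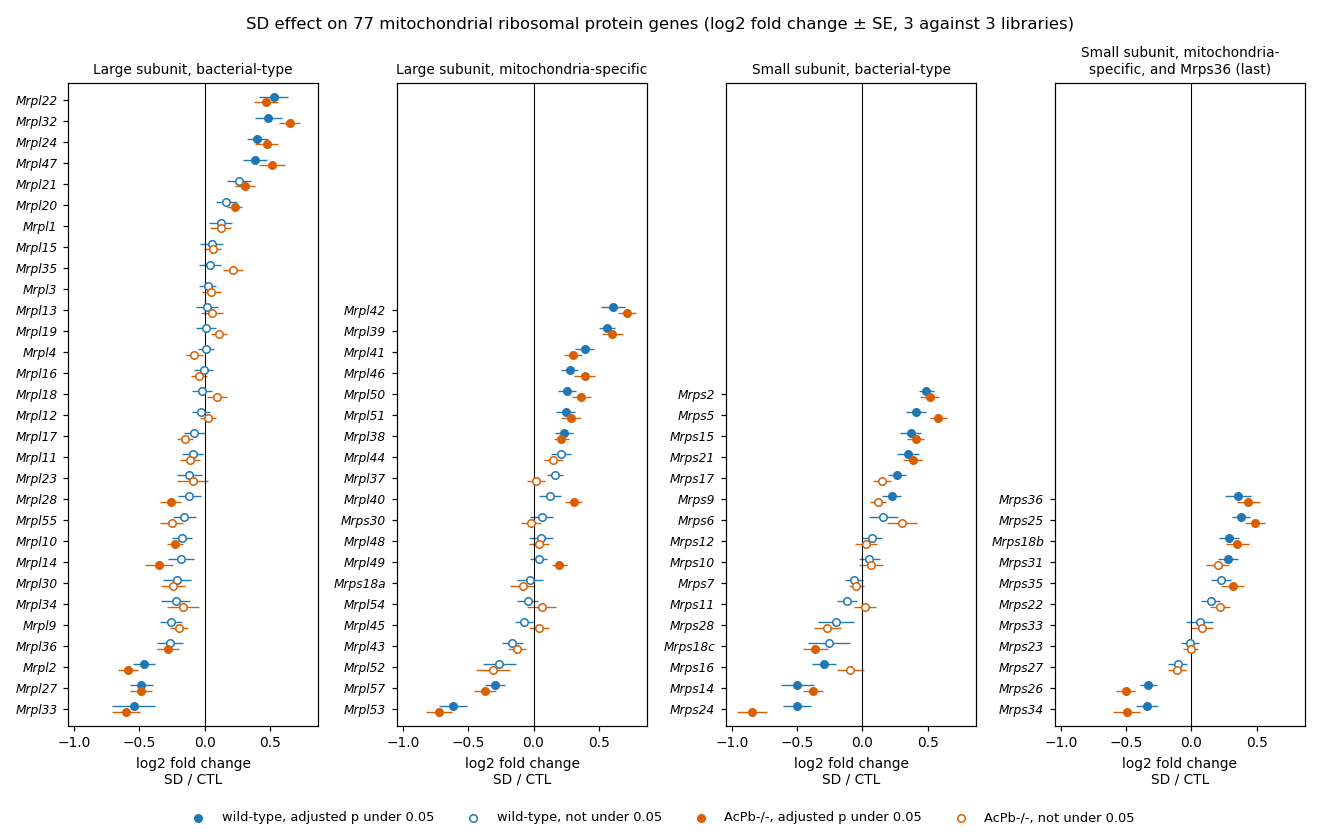
Log2 fold change (SD over CTL, x axis) of the 77 genes in WT (blue) and AcPb-/- mice (orange), with bars of 1 SE. Filled points mark an adjusted p under 0.05. The 4 panels are by subunit and class of the protein. Each is sorted by the WT value apart from Mrps36 in the top row of the last panel. Each of the 4 panels holds filled points on both sides of 0, from -0.84 (Mrps24, AcPb-/-) to 0.71 (Mrpl42, AcPb-/-).

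Both subunits and both classes of protein held members of each direction. In the large subunit, 11 genes were upregulated and 5 downregulated in WT mice (32.0% called, beside 25.4% of all genes tested and 33.9% of those with a mean of at least 10), and 15 and 9 in AcPb-/- mice (48.0%, beside 27.4% and 37.3%). In the small subunit the counts were 9 and 5 in WT (53.8%) and 7 and 5 in AcPb-/- mice (46.2%). Of the 30 mitochondria-specific members, 10 were upregulated and 4 downregulated in WT and 12 and 4 in AcPb-/- mice (46.7% and 53.3% called), with median log2 fold changes of 0.10 and 0.12. Of the 46 bacterial-type members, 10 were upregulated and 6 downregulated in WT and 10 and 10 in AcPb-/- mice (34.8% and 43.5% called), with medians of -0.01 and 0.02. The bacterial-type members of the large subunit in WT mice, at 23.3%, were called no more often than all genes tested. In AcPb-/- mice 43.3% of them were called, beside 27.4% of all genes tested and 37.3% of those with a mean of at least 10. The difference between the classes was not tested.

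The WT and the AcPb-/- comparisons share no library, and 27 genes passed in both, each in the same direction. Both comparisons carry the same 2 imbalances, since only controls had Xist and every SD library had more reads than any control. The part of these in the agreement between the genotypes was not tested. The 27 genes made up 87.1% of the 31 WT calls and 73.0% of the 37 AcPb-/- calls, or 35.1% of the 77. Of the 20013 genes tested in both comparisons, 19.3% passed in both in the same direction (10.2% up and 9.16% down). The 18 upregulated in both were Mrpl22, Mrpl24, Mrpl32, Mrpl38, Mrpl39, Mrpl41, Mrpl42, Mrpl46, Mrpl47, Mrpl50, Mrpl51, Mrps2, Mrps5, Mrps15, Mrps18b, Mrps21, Mrps25 and Mrps36. The 9 downregulated in both were Mrpl2, Mrpl27, Mrpl33, Mrpl53, Mrpl57, Mrps14, Mrps24, Mrps26 and Mrps34. Of these 27 genes, 14 also passed in both genotypes whichever 1 library was left out: Mrpl22, Mrpl24, Mrpl32, Mrpl39, Mrpl41, Mrpl42, Mrps2, Mrps5 and Mrps25 among the upregulated, and Mrpl2, Mrpl27, Mrpl53, Mrps24 and Mrps26 among the downregulated. Without regard to any test, 35 of the 77 had all SD libraries on the same side of their own controls in both genotypes, 25 above and 10 below, which 28.7% of all genes did. Over the 77 genes, which come from the same libraries and are not independent, the log2 fold changes in the 2 genotypes had a Pearson correlation of 0.96, and 70 of 77 had the same sign. No such values over all genes are given beside these. The 19.3% and 28.7% above include genes with few reads. No trait particular to the family is therefore read from this agreement.

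**Figure D2:**
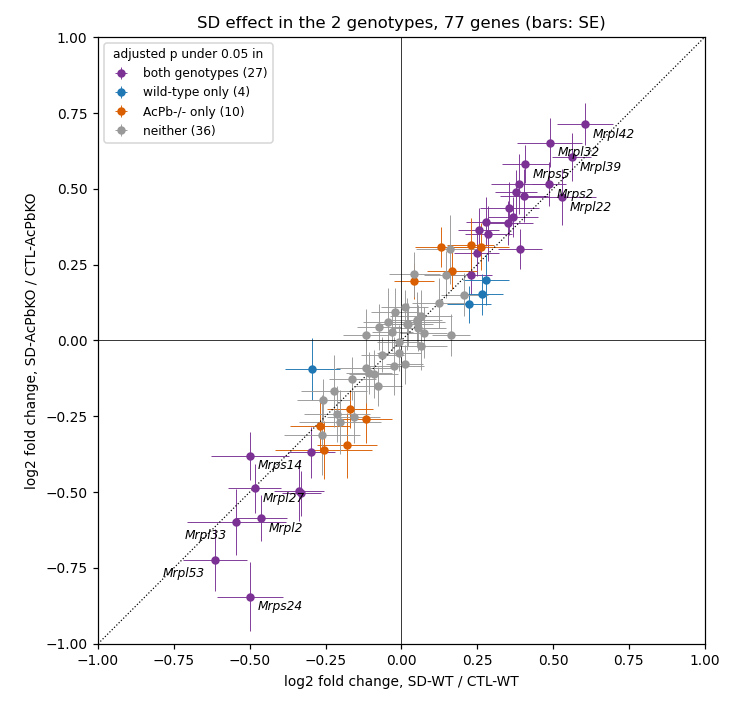
Log2 fold change by SD in WT (x axis) against AcPb-/- mice (y axis) for the 77 genes, with bars of 1 SE, coloured by the genotype in which the adjusted p was under 0.05, and with a dotted line of equal values. The 27 genes that passed in both lie in the upper right (18) or lower left (9), and 70 of 77 genes have the same sign in both.

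The start regions of the 3 genes with the lowest and the 3 with the highest mean log2 fold change over both genotypes are printed here, because sequences recognised by the regulators NRF1, GABPA (an ETS factor) and YY1 are known from the promoters of nuclear genes for mitochondria. Each window runs from 250 bases before to 50 bases after the annotated start in RefSeq (build GRCm38.p6, mouse), 5′ to 3′ on the strand of the gene. Capitals mark a match on either strand to CCGGAAG (ETS), AAGATGGC (YY1) or the NRF1 palindrome, which reads GCGCATGCGC in both printed matches and was searched with any base in place of its only T. The matches did not overlap each other.
Mrps24 (chr11:5707652-5707951, minus strand): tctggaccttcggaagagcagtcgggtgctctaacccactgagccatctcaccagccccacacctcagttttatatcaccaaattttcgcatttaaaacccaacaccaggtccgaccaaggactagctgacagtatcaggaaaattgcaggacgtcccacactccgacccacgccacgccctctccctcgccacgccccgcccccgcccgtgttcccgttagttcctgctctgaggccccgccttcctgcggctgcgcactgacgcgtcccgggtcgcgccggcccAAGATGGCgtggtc
Mrpl53 (chr6:83108858-83109157, plus strand): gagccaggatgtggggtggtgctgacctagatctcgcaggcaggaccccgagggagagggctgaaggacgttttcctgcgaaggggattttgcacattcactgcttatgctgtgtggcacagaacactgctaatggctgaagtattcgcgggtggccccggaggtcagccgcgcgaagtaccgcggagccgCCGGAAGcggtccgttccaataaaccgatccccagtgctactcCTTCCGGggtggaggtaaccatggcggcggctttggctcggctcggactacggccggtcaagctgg
Mrpl33 (chr5:31613701-31614000, plus strand): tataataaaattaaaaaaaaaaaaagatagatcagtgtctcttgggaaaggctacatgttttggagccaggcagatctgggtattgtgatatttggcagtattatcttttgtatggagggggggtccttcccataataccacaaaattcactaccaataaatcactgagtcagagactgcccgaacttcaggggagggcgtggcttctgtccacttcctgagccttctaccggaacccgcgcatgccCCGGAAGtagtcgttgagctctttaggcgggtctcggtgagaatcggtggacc
Mrpl32 (chr13:14612988-14613287, minus strand): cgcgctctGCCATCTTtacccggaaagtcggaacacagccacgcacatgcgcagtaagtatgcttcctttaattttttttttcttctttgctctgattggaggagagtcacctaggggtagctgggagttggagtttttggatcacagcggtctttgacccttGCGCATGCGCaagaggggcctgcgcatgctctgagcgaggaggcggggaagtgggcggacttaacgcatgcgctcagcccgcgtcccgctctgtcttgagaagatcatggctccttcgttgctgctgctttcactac
Mrpl39 (chr16:84735195-84735494, minus strand): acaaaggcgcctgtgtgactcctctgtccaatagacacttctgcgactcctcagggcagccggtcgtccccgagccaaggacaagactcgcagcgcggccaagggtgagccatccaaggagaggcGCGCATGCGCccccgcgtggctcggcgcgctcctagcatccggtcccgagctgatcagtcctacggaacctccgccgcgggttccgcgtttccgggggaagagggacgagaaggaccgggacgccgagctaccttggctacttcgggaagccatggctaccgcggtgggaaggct
Mrpl42 (chr10:95501900-95502199, minus strand): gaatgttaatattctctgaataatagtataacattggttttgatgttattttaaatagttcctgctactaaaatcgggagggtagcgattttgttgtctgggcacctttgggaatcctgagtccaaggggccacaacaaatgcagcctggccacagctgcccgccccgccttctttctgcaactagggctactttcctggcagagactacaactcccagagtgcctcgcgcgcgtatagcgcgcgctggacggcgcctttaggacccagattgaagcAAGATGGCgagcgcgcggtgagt
The first 3 belong to downregulated genes and the last 3 to upregulated genes. Of the 77 genes, 68 had a RefSeq window, with 74 windows in all. At least 1 of the 3 motifs stood in 56.8% of these 74 windows, compared with 14.7% of all 32851 windows of that length. The ETS letters stood in 33.8% of the members' windows and in 8.86% of all windows, the NRF1 letters in 17.6% and 4.60%, and the YY1 letters in 16.2% and 2.75%. Counted by gene, 42 of the 68 held a motif. Among members upregulated in both genotypes, 7 of 17 with a window held a motif, 4 of them the ETS letters. Among those downregulated in both it was 6 of 8, with the ETS letters in 5, and among the members that passed in neither it was 22 of 30. A match of letters does not show that a factor binds there.

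The downregulated members of the large subunit included proteins near the catalytic core. Mrpl2 (chr17:46646229-46650139, mm10) codes for the counterpart of bacterial L2, which lies at the peptidyl transferase centre. It stood at 1134, 1039 and 1013 normalized counts in CTL-WT and at 741, 721 and 855 in SD-WT, and at 1111, 1054 and 983 in CTL-AcPbKO and 685, 727 and 680 in SD-AcPbKO. All SD libraries lay below all controls in both genotypes, with log2 fold changes of -0.46 ± 0.09 (SE; limma adjusted p = 0.00415) and -0.59 ± 0.07 (adjusted p = 0.00128). Mrpl27, the counterpart of bacterial L27, whose tail reaches toward the same centre, stood at 1192, 1296 and 1223 in CTL-WT, 832, 826 and 1007 in SD-WT, 1175, 1231 and 1132 in CTL-AcPbKO and 764, 901 and 859 in SD-AcPbKO. It fell by 0.48 and 0.49 on the log2 scale, again with no overlap. Of its exon sequence, 12.6% of 100-base stretches also occur in another gene, so some of its reads may have been lost or shared.

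The fall of Mrpl33, a bacterial-type protein of the large subunit, was clear of the controls in AcPb-/- mice only. Its counts were 494, 541 and 634 in CTL-WT and 346, 315 and 501 in SD-WT, so the library SD-WT 04 lay above the lowest control. In AcPb-/- mice the counts of 517, 553 and 508 in CTL-AcPbKO and 306, 389 and 348 in SD-AcPbKO did not overlap. The log2 fold changes were -0.54 ± 0.16 (adjusted p = 0.0339) and -0.60 ± 0.11 (adjusted p = 0.00486). The WT call was lost without CTL-WT 02 (adjusted p = 0.0897), CTL-WT 03 (0.105), SD-WT 01 (0.124) or SD-WT 02 (0.137), and without SD-WT 04 the adjusted p was 0.0017.

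Among the mitochondria-specific proteins of the large subunit, Mrpl53 fell in both genotypes and Mrpl39 and Mrpl42 rose. Mrpl53 stood at 810, 890 and 850 in CTL-WT and 530, 492 and 655 in SD-WT, and at 925, 966 and 872 in CTL-AcPbKO and 498, 641 and 538 in SD-AcPbKO. It was down by log2 fold changes of -0.61 ± 0.11 (adjusted p = 0.00304) and -0.72 ± 0.10 (adjusted p = 0.00190). An overlapping annotated gene on the same strand, Gm42688, shares most of its exons (75.6% of 100-base stretches also occur in other genes) and is not in the tables, so the count may not be that of Mrpl53 alone.

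Mrpl39, whose protein resembles part of a threonyl-tRNA synthetase, showed little spread in WT mice, at 976, 954 and 975 in CTL-WT against 1448, 1473 and 1373 in SD-WT. In AcPb-/- mice it went from 909, 916 and 978 to 1495, 1288 and 1481. The log2 fold changes were 0.56 ± 0.06 (adjusted p = 0.000515) and 0.60 ± 0.08 (adjusted p = 0.00137). Mrpl42 had the largest rise of the family in both genotypes. It went from 1251, 1369 and 1432 in CTL-WT to 2111, 2282 and 1798 in SD-WT, and from 993, 1006 and 1112 in CTL-AcPbKO to 1769, 1650 and 1674 in SD-AcPbKO. These are log2 fold changes of 0.61 ± 0.09 (adjusted p = 0.00170) and 0.71 ± 0.07 (adjusted p = 0.000614), with no overlap between SD and control libraries. The other mitochondria-specific large-subunit genes upregulated in both genotypes were Mrpl38, Mrpl41, Mrpl46, Mrpl50 and Mrpl51, by 0.21 to 0.39 on the log2 scale, and Mrpl57 was downregulated in both (-0.30 and -0.37).

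The bacterial-type large-subunit genes upregulated in both genotypes were Mrpl22, Mrpl24, Mrpl32 and Mrpl47. Mrpl32, whose product is cleaved by a protease of the inner membrane before it joins the ribosome, stood at 428, 528 and 565 in CTL-WT and at 720, 720 and 684 in SD-WT. In AcPb-/- mice it stood at 440, 443 and 477 and, after SD, at 702, 691 and 742. The 6 SD libraries lay above all 6 controls, with log2 fold changes of 0.49 ± 0.11 (adjusted p = 0.00858) and 0.65 ± 0.08 (adjusted p = 0.00114). Mrpl22, the counterpart of a bacterial protein that lines the exit tunnel, stood at 442, 486 and 503 in CTL-WT and 658, 812 and 609 in SD-WT, and at 467, 500 and 508 in CTL-AcPbKO and 742, 616 and 690 in SD-AcPbKO. It rose by 0.53 and 0.47 on the log2 scale. Of its 100-base stretches, 12.6% also occur in Gm6997, so some of its reads may have been lost or shared. Such shares were 16.3% for Mrpl24 and 20.2% for Mrpl47, with overlapping genes on the other strand. Mrpl47 rose by 0.39 ± 0.09 in WT (adjusted p = 0.0123, and 0.0574 without CTL-WT 02) and by 0.52 ± 0.10 in AcPb-/- mice (adjusted p = 0.00643).

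In the small subunit, Mrps24 had the largest fall. Its product is the counterpart of bacterial S3, which lies where the mRNA enters the ribosome. It stood at 597, 607 and 608 in CTL-WT and 425, 369 and 497 in SD-WT, and at 630, 710 and 648 in CTL-AcPbKO and 314, 399 and 396 in SD-AcPbKO. No SD library reached a control, and the log2 fold changes were -0.50 ± 0.11 (adjusted p = 0.00853) and -0.84 ± 0.11 (adjusted p = 0.00153). Urgcp, which overlaps Mrps24 on the same strand, also fell, by 0.33 and 0.40 on the log2 scale.

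Mrps14 went from 1180, 1180 and 1277 in CTL-WT to 745, 776 and 1092 in SD-WT, where SD-WT 04 was again the highest of the SD libraries. In AcPb-/- mice it went from 968, 1049 and 1030 to 713, 817 and 810. The log2 fold changes were -0.50 ± 0.13 (adjusted p = 0.0177) and -0.38 ± 0.08 (adjusted p = 0.00897), and the WT call was lost without CTL-WT 02 (adjusted p = 0.0561), CTL-WT 03 (0.0525), SD-WT 01 (0.0786) or SD-WT 02 (0.0805). The mitochondria-specific Mrps26 and Mrps34 fell by 0.33 and 0.34 in WT and by 0.50 and 0.50 in AcPb-/- mice on the log2 scale. The WT call of Mrps34 was lost without SD-WT 01 (adjusted p = 0.0636) or SD-WT 02 (0.0696). Mrps34 shares 67.0% of its 100-base stretches with the overlapping genes Nme3 on its own strand and Mapk8ip3 on the other strand, of which Nme3 had log2 fold changes of -0.75 and -0.93, both past the threshold, and Mapk8ip3 of -0.03 and -0.04.

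The strongest rises in the small subunit were those of Mrps2 and Mrps5, both counterparts of bacterial proteins on the mRNA path. Mrps2 stood at 1360, 1370 and 1377 in CTL-WT and at 1921, 1932 and 1906 in SD-WT. It stood at 1292, 1393 and 1385 in CTL-AcPbKO and at 2085, 1798 and 1928 in SD-AcPbKO. The SD libraries were above every control by log2 fold changes of 0.49 ± 0.06 (adjusted p = 0.000598) and 0.51 ± 0.07 (adjusted p = 0.00187). Mrps5 stood at 1332, 1352 and 1394 in CTL-WT, 1868, 1945 and 1621 in SD-WT, 1341, 1280 and 1309 in CTL-AcPbKO and 2071, 1923 and 1884 in SD-AcPbKO. It rose by 0.41 ± 0.08 (adjusted p = 0.00441) and 0.58 ± 0.06 (adjusted p = 0.000851). Mrps36, the gene with a role outside the ribosome, rose as well, by 0.36 ± 0.10 (adjusted p = 0.0235) and 0.44 ± 0.09 (adjusted p = 0.00783). Its WT call was lost without CTL-WT 01, CTL-WT 02, SD-WT 01 or SD-WT 02 (adjusted p up to 0.0808).

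**Figure D3:**
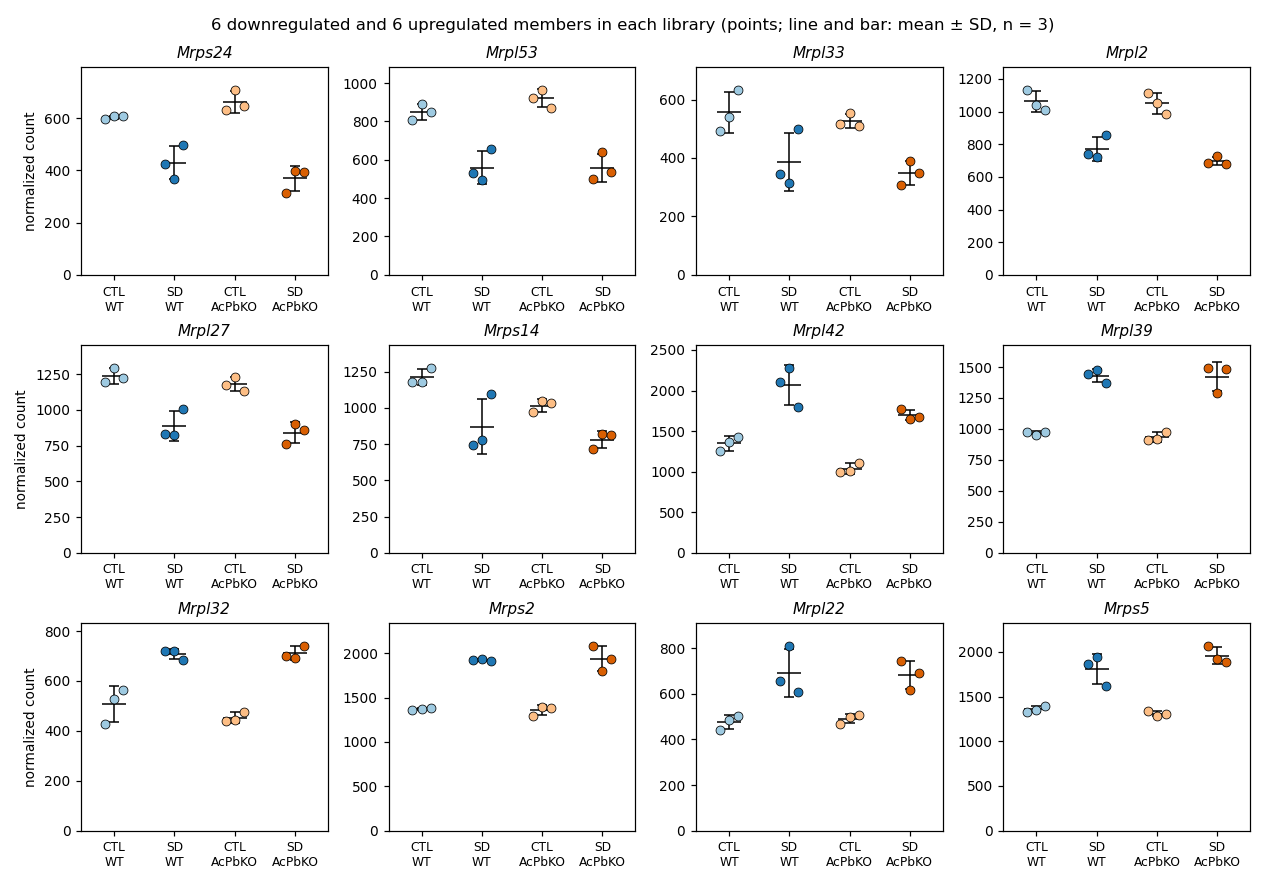
Normalized counts (y axis, from 0) of 6 downregulated members (Mrps24, Mrpl53, Mrpl33, Mrpl2, Mrpl27, Mrps14) and 6 upregulated members (Mrpl42, Mrpl39, Mrpl32, Mrps2, Mrpl22, Mrps5) in the 3 libraries of each group, with the mean and SD (n = 3). SD and control libraries of a genotype are apart in all 12 panels except for Mrpl33 in WT mice, where 1 SD library at 501 lies above the control at 494.

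Other members with a known place or function did not pass in WT mice. The stalk that recruits translation factors is built from Mrpl10, Mrpl11 and Mrpl12, of which Mrpl12 also binds the mitochondrial RNA polymerase. Mrpl12 had log2 fold changes of -0.03 ± 0.07 and 0.03 ± 0.06 (adjusted p = 0.782 and 0.760) and Mrpl11 of -0.09 ± 0.08 and -0.11 ± 0.08. Mrpl10 had -0.17 ± 0.08 in WT mice and was downregulated in AcPb-/- mice by -0.23 ± 0.06 (adjusted p = 0.0303), a call that was lost without CTL-AcPbKO 04 or 05 or SD-AcPbKO 02 or 04 (adjusted p up to 0.108). At the exit of the tunnel, where the ribosome meets the inner membrane, Mrpl23 had -0.12 and -0.09 and Mrpl45 -0.07 and 0.04, none past the threshold. Mrps12, a protein of the decoding centre, had 0.07 and 0.03, and Mrps30 0.06 and -0.02.

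The 3 paralogs of Mrps18 had different values. Mrps18b was upregulated in both genotypes, from 542, 538 and 589 in CTL-WT to 675, 679 and 681 in SD-WT (0.29 ± 0.08, adjusted p = 0.0221) and by 0.35 ± 0.09 in AcPb-/- mice (adjusted p = 0.0207). Mrps18c had a log2 fold change of -0.26 ± 0.16 in WT mice (adjusted p = 0.277) and was downregulated in AcPb-/- mice (-0.36 ± 0.10, adjusted p = 0.0235). Single libraries ended the calls of Mrps18b in WT (adjusted p up to 0.0944, without CTL-WT 02) and in AcPb-/- mice (up to 0.0804, without SD-AcPbKO 02) and that of Mrps18c (up to 0.0907, without CTL-AcPbKO 04). Mrps18a had -0.02 and -0.08 and did not pass. By sequence, 24.5% of the 100-base stretches of Mrps18b also occur in other genes. The differences between the paralogs were not tested.

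In all, 36 of the 77 passed in neither genotype, with log2 fold changes from -0.26 to 0.21 in WT mice and from -0.31 to 0.30 in AcPb-/- mice. The median half-width of the 95% interval of a member's log2 fold change was 0.18 in each genotype, so smaller changes were mostly not detectable with 3 libraries a group.

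The members also differed in level. Over the 12 libraries, Mrpl41 (1744 normalized counts per kb of exon), Mrps21 (1485) and Mrpl12 (1209) were highest, the median of the 77 was 424, and Mrpl33 (62.0), Mrps35 (78.6) and Mrps10 (100.1) were lowest. The low values depended on the length used, since by the longest transcript Mrpl33 stood at 166 and the 3 lowest were Mrpl23, Mrpl13 and Mrpl47. Median levels per kb were 468 for the 18 upregulated in both genotypes, 352 for the 9 downregulated in both and 405 for the 36 that passed in neither. The longest transcripts of the upregulated and downregulated genes were of similar length, with medians of 1762 and 1884 bases, and the GC content of their exons had medians of 48.8% and 51.5%. When the trend of the fold changes with GC and length over all genes was removed, 27 of the 31 WT calls and 31 of the 37 AcPb-/- calls were kept, and none changed sign.

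The control libraries with Xist moved the number of calls, and no member past the threshold changed direction with or without them. With a term for them in a fit of all 4 groups, 27 of the 31 WT calls and 30 of the 37 AcPb-/- calls were kept, and 19.3% and 24.7% of all genes passed. The calls then numbered 22 up and 6 down in WT and 26 up and 7 down in AcPb-/- mice. With these 4 libraries left out, 1 control library remained in each genotype, which was assumed to vary like the other groups. The calls then dropped to 5 in WT (Mrpl24, Mrpl32, Mrpl41, Mrps2 and Mrps36) and 14 in AcPb-/- mice, 13 of them among the 37, while 3.27% and 10% of all genes passed. The 5 WT genes are all upregulated, so no downregulated WT call was kept, while calls in both directions remained in AcPb-/- mice. With 1 control library in each genotype, a lost call does not show that a change is absent. All 31 and all 37 members kept their sign.

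**Figure D4:**
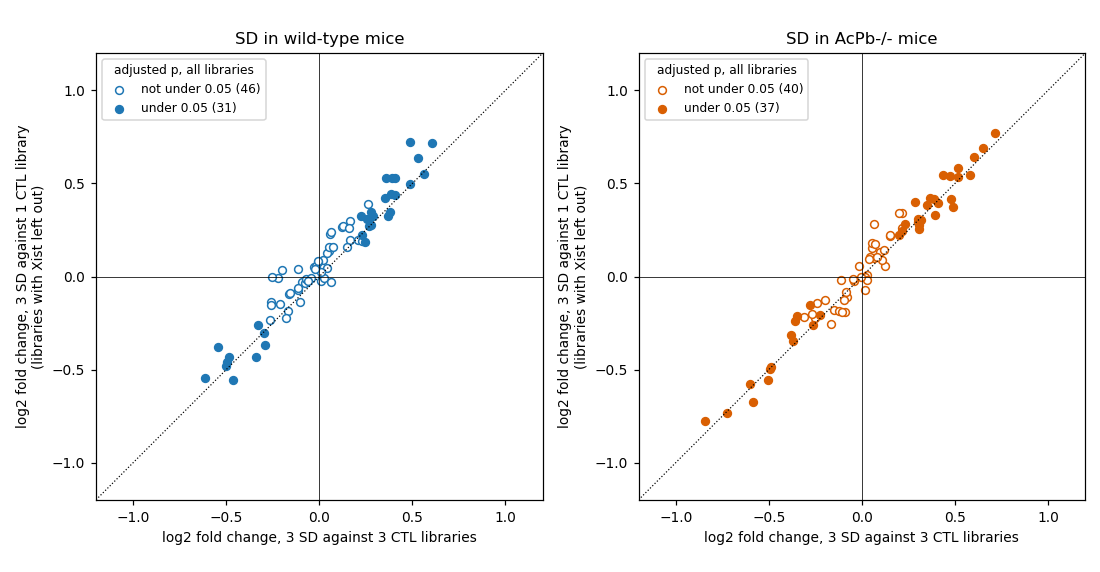
Log2 fold change by SD over all libraries (x axis) against the value with the 4 control libraries with Xist left out (y axis) for the 77 genes in WT (left) and AcPb-/- mice (right), with filled points for adjusted p under 0.05 over all libraries and a dotted line of equal values. The 31 and 37 filled points lie in the upper right or lower left quadrant, none having changed sign.

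No member was called between the genotypes by limma. In undisturbed mice, none of the 77 passed between CTL-AcPbKO and CTL-WT (limma), where 0.0197% of all genes did. An unadjusted p under 0.05 (limma) was found for 9 members and for 1730 of the 20273 genes tested. No member passed in edgeR either, and 1 passed in DESeq2, Mrpl42 (adjusted p = 0.0207), beside 0.459% of all genes tested. Mrpl42 had a log2 fold change of -0.38 ± 0.07 in this comparison (limma adjusted p = 0.254), and its 3 CTL-AcPbKO libraries (993 to 1112) lay below the 3 CTL-WT libraries (1251 to 1432). After SD, none of the 77 passed between SD-AcPbKO and SD-WT in limma, edgeR or DESeq2. Of all genes tested, 0.0145% passed in limma and 0.470% in DESeq2. In limma 1265 of the 20621 genes tested had an unadjusted p under 0.05, and 1 of these was a member. That one was again Mrpl42, at -0.28 ± 0.09 (adjusted p = 0.674), with 1650 to 1769 in SD-AcPbKO and 1798 to 2282 in SD-WT. More members were lower than higher in the AcPb-/- mice, 55 against 22 in the undisturbed and 58 against 19 in the SD comparison, by a median of -0.05 on the log2 scale in each, and 0.00 over all genes. The SD counts moved with single libraries, to 42 lower against 35 higher (median -0.01) without SD-WT 04 and 47 against 30 (median -0.02) without SD-AcPbKO 02. In undisturbed mice they were 46 against 31 (median -0.04) without CTL-WT 03. Within 95% intervals, the difference was smaller than 0.5 on the log2 scale for 76 and 75 of the 77.

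The effect of SD itself was not shown to differ between the genotypes. In a model of all 4 groups, none of the 77 interaction terms passed, nor did any of the 20978 genes (limma, 0.00% of all genes), and no member had an unadjusted p under 0.05. edgeR and DESeq2 also called no member, with 1 member each at an unadjusted p under 0.05. The smallest unadjusted p was that of Mrps24 (0.0539; -0.35 ± 0.16, 95% interval -0.70 to 0.01), followed by Mrpl49 (0.0760; 0.15 ± 0.08) and Mrps26 (0.0803; -0.18 ± 0.09), all with an adjusted p of 0.986. The 95% interval of the interaction lay within 0.5 on the log2 scale of 0 for 73 of the 77. Thus the 4 genes called in WT mice only (Mrps9, Mrps16, Mrps17 and Mrps31) and the 10 called in AcPb-/- mice only (Mrpl10, Mrpl14, Mrpl20, Mrpl21, Mrpl28, Mrpl36, Mrpl40, Mrpl49, Mrps18c and Mrps35) were not shown to respond in 1 genotype alone.

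When both factors differed, SD-AcPbKO against CTL-WT, 15 of the 77 were higher and 17 lower (41.6%, with 27.7% of all genes passing, 14.1% up and 13.6% down). This comparison shares its libraries with the others, so its values are only set beside them. Mrps24 (-0.71), Mrpl33 (-0.67), Mrps14 (-0.64), Mrpl53 (-0.61), Mrpl2 (-0.60) and Mrpl27 (-0.56) were the lowest, and Mrpl39 (0.55), Mrps5 (0.53), Mrpl22 (0.52), Mrps2 (0.50), Mrpl32 (0.50) and Mrps25 (0.46) the highest on the log2 scale. Mrpl42, the highest in each genotype's own comparison, was at 0.33 ± 0.07 (adjusted p = 0.00738).

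Genes that build, run or regulate the mitochondrial ribosome were compared from lists set beside the family. Of 5 mitoribosomal proteins with other symbols, Dap3, a small-subunit GTP-binding protein, was downregulated in both genotypes (-0.38 and -0.41). Of 23 genes for ribosome assembly and rRNA modification, 3 were upregulated and 5 downregulated in WT and 3 and 7 in AcPb-/- mice, with medians of -0.08 and -0.20. These shares, 34.8% and 43.5%, lie beside 25.4% and 27.4% of all genes tested and 33.9% and 37.3% of those with a mean of at least 10, and the WT share is near the latter. Wbscr16 (-0.66 and -0.72), Mpv17l2 (-0.39 and -0.60), Rbfa (-0.34 and -0.46), Ngrn (-0.31 and -0.33) and Trub2 (-0.27 and -0.29) fell in both, while Mterf4 (0.34 and 0.39) and Fastkd2 (0.29 and 0.33) rose in both.

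Of 15 genes for mitochondrial translation factors and mRNA handling, 6 were upregulated and 2 downregulated in WT and 4 and 2 in AcPb-/- mice (53.3% and 40.0% called, the latter near the 37.3% background at that minimum). The initiation factors Mtif2 (0.26 and 0.35) and Mtif3 (0.30 and 0.30) and the elongation factors Tufm (0.21 and 0.33) and Gfm1 (0.31 and 0.38) rose in both genotypes. Tsfm, the exchange factor of Tufm, fell in both (-0.33 and -0.51), as did Slirp, which stabilises mitochondrial mRNAs (-0.64 and -0.88). Among 5 genes of mitochondrial transcription, Tfb2m (0.49 and 0.66) and Mterf1a (0.57 and 0.62) rose and the RNA polymerase Polrmt fell (-0.25 and -0.42) in both genotypes. Of 9 regulators, 4 were upregulated and 1 downregulated in WT and 5 and 1 in AcPb-/- mice. The called shares were 55.6% and 66.7%, beside 25.4% and 27.4% of all genes tested. With a mean of at least 10 the shares of all genes were 33.9% and 37.3%. Gabpa (0.52 and 0.69), its partner Gabpb1 (0.44 and 0.47), Nrf1 (0.40 and 0.39) and Ppargc1b (0.47 and 0.41) rose, and Esrra fell (-0.33 and -0.40). Yy1 had 0.08 and 0.03 and did not pass.

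The larger families tied to the same machinery, listed for comparison, had more falls than rises. Of the cytosolic ribosomal protein genes, 12 were upregulated and 23 downregulated of 88 tested in WT, and 11 and 35 of 87 in AcPb-/- mice, with medians of -0.04 and -0.12. Of the nuclear genes for oxidative phosphorylation subunits, the partners of the proteins that mitochondrial ribosomes make, 11 were upregulated and 26 downregulated of 83 in WT, and 10 and 33 in AcPb-/- mice, with medians of -0.13 and -0.19. The called shares were 39.8% and 52.9% for the former and 44.6% and 51.8% for the latter. Of all genes tested, 25.4% in WT (13.2% up and 12.2% down) and 27.4% in AcPb-/- mice (14.1% up and 13.3% down) were called. With a mean of at least 10 it was 33.9% and 37.3%. The differences between these families and the mitochondrial ribosomal protein genes were not tested.

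**Figure D5:**
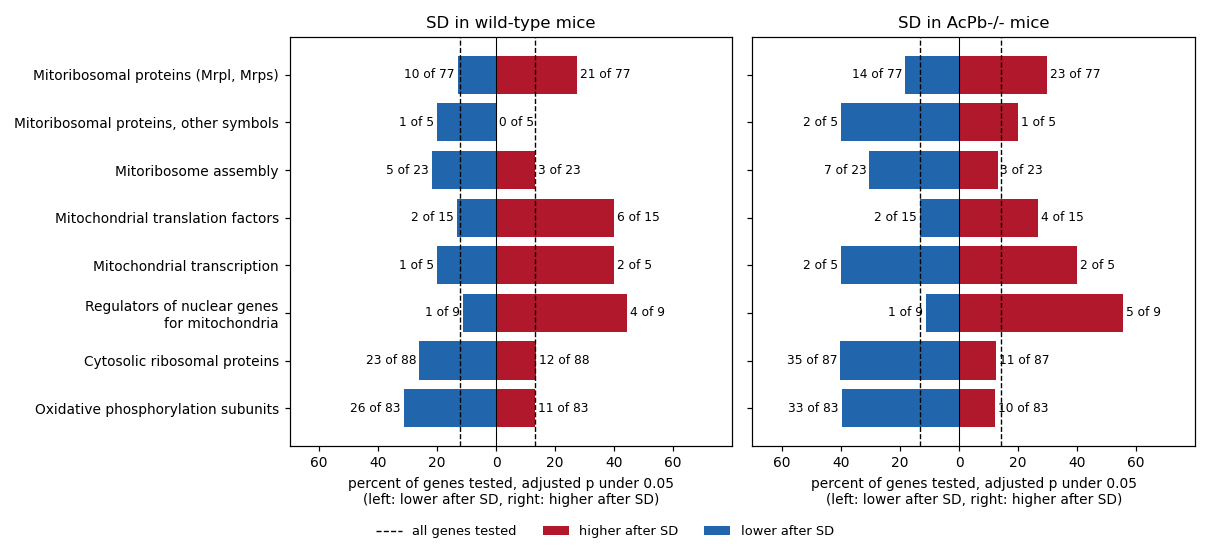
Percent of the genes tested with an adjusted p under 0.05 (x axis; left of 0 lower, right of 0 higher after SD) for the mitochondrial ribosomal protein genes and 7 related lists in WT (left panel) and AcPb-/- mice (right panel), with the counts at the bars and dashed lines at the percent of all genes tested. For the mitochondrial ribosomal protein genes the bar of the upregulated is the longer (21 of 77 and 23 of 77), and for the cytosolic ribosomal proteins and the oxidative phosphorylation subunits the bar of the downregulated is the longer.

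Several members share exons with a neighbour, and the deposited tables do not state whether the strand of the reads was used in counting. By the annotation, 8 members overlap an exon of another gene on the same strand and 27 on the other strand. Mrpl46 and Mrps11 overlap on opposite strands, and Mrpl46 was upregulated (0.28 and 0.39) while Mrps11 had -0.12 and 0.02. Mrpl36 overlaps Ndufs6, a complex I subunit, in 30 bases, with -0.27 and -0.28 for Mrpl36 and 0.39 and 0.34 for Ndufs6, of which Mrpl36 passed only in AcPb-/- mice. Mrps25, with 66.4% of its 100-base stretches shared, mostly with Nr2c2 on the other strand, was upregulated by 0.38 and 0.49 beside 0.15 and 0.09 for Nr2c2, which did not pass.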

How the data were processed

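The authors deposited 5 tables of normalized counts, each comparing 2 groups, with columns of their own DESeq2 comparison (log2 fold change and its error, the Wald statistic as a score, p-value and adjusted p-value), which were not used. Per the labels and the methods, TruSeq Stranded mRNA libraries were read as paired 100-base reads, aligned to mm10 with HISAT2 2.2.1 and counted per gene (featureCounts in the submitters' processing notes, HTSeq in the methods). The deposited signal values are counts divided by size factors. Dividing by the value of 1 read gave whole reads for 100.0% of 732630 values (tolerance 0.01), the same in every table. The labels list 16 samples, of which 4 have no column here and were not analysed. Columns that could not be mapped: 0.

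The main test was limma 3.58.1 (R 4.3.3) on log2(normalized count + 1) of the deposited table of each pair of groups (the interaction on all 12 libraries), over all genes with a read, with no other filter. Fold changes are on that scale, which understates low genes. Counts are given as normalized over all 12 libraries. The recovered reads served for edgeR 4.0.16 and DESeq2 1.42.0, whose WT calls came to 31 (edgeR, not filtered) and 33 members of 5368 and 5376 genes. The other settings were other pseudocounts (0.1 and 10), a mean of at least 10, median centring, TMM, thinning all libraries to 26504840 reads, removal of GC and length trends, 1 fit of 4 groups, an Xist term, a replicate block and each library left out. The fits were tested on simulated data. Gene models were GENCODE M21 and promoters RefSeq. Named genes were, in each comparison, the 6 highest and 6 lowest past the threshold, the 3 highest and lowest levels per kb, the 3 smallest interaction p-values and members with a known role; the other lists of calls are complete, and other names were chosen after their values were seen. Members and gene lists were chosen with earlier results of these data known. Intervals and depths cover these libraries only, at 26504840 to 71857505 reads each.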

Additional observations from a re-analysis of the deposited data

How the results depend on the processing

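The counts of members past the threshold stayed within 1.5 times under both edgeR settings, DESeq2, TMM, median centring, both pseudocounts, the filter on the mean, thinning, removal of the GC and length trends, 1 fit of 4 groups and the Xist term, with 1 exception: DESeq2 called 1 member between the genotypes in undisturbed mice. In that fit 0.459% of all genes tested passed. At an adjusted p under 0.01, 14 members passed for SD in WT, 23 for SD in AcPb-/- mice and 19 for SD-AcPbKO against CTL-WT. With the Xist libraries left out these counts were 5, 14 and 8. Leaving out 1 library at a time gave 16 (without CTL-WT 02) to 38 members in WT and 24 (without CTL-AcPbKO 04) to 36 in AcPb-/- mice. In those fits 13.3%, 30.7%, 16.7% and 26.6% of all genes tested passed, in that order. For SD-AcPbKO against CTL-WT it gave 22 to 32, beside 16.6% and 29.5% of all genes tested. It gave 0 throughout for the genotype comparisons and the interaction. Without SD-WT 01 or without SD-WT 02 the WT count was 18, beside 14.5% and 14.0% of all genes tested. Without SD-AcPbKO 04, the library with choroid plexus markers, the AcPb-/- count was 25 (16 higher, 9 lower), beside 17.6%.

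With the replicate block, 0 members and no gene passed in any comparison that allowed it (limma). The pairs of groups shared 2 numbers and left 1 residual degree of freedom. At an unadjusted p under 0.05 (limma) were 39 members in WT, beside 6889 of 20417 genes. In AcPb-/- mice it was 32 members, beside 4662 of 20574 genes. For the genotypes after SD it was 9, beside 2316 of 20621, and for SD-AcPbKO against CTL-WT 25, beside 4677 of 20560. The interaction left 4 residual degrees of freedom, with 5 members and 1077 of 20978 genes at an unadjusted p under 0.05. Deviations of same-numbered libraries correlated at -0.43 to 0.23 over 16062 genes. Differently numbered libraries were not set beside them, so whether the numbers stand for a pairing was not tested. The block could not be fitted to the undisturbed genotype comparison.

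None of the members past the threshold changed sign for SD in WT or in AcPb-/- mice, whereas some members that had not passed did. In WT mice Mrpl12 moved from -0.03 to 0.060 without the GC and length trends, 0.0032 with the Xist term, 0.052 without the Xist libraries and -0.071 to 0.015 with single libraries left out. Mrps18a moved to 0.0411 without the trends, 0.011 with the Xist term, 0.0410 without the Xist libraries and -0.15 to 0.045 with single libraries left out. Without the Xist libraries, Mrpl23 moved to 0.043 and Mrps30 to -0.028 in WT, and Mrps12 to -0.019 and Mrps30 to 0.055 in AcPb-/- mice. In AcPb-/- mice Mrpl23 moved to 0.029 and Mrps18a to 0.048 with the replicate block. With single libraries left out there, the ranges were -0.0012 to 0.065 for Mrpl12, -0.0033 to 0.098 for Mrpl45, -0.037 to 0.084 for Mrps12, -0.17 to 0.021 for Mrps18a and -0.056 to 0.038 for Mrps30. The cause of these changes was not tested.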
